A study of Mus musculus with 96 samples.

Results

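The 82 genes described here are named for proteins of the cytosolic ribosome and were measured in RNA from mouse heart ventricles. They were chosen by name. Of the 55376 genes in the deposited table, 89 carried an Rpl or Rps symbol with a number and at most a short suffix, or were Rpsa, Rplp0, Rplp1 or Rplp2, and 82 of these reached a mean of 5 CPM (counts scaled to library size) over all libraries. By symbol, 49 of the members belong to the large subunit and 33 to the small. They lie on 19 chromosomes, with 4 (Rpl10, Rpl36a, Rpl39 and Rps4x) on the X chromosome. All 82 also passed the filter on low counts used for the tests. Not all of them code for a ribosomal protein: Rpl6l, Rps3a2 and Rps4l are annotated as processed pseudogenes. Other genes share 90.2% of the 50-base stretches of Rps3a2 and 76.4% of those of Rpl6l, so their counts may belong in part to other genes.

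The cytosolic ribosome translates every mRNA made from nuclear genes. Its small subunit reads the codons and its large subunit joins the amino acids, and since each ribosome holds a single copy of most of its proteins, cells make them in matched amounts. Most of their mRNAs begin with a terminal oligopyrimidine (TOP) tract, an uninterrupted run of C and T bases from the very first base, through which the growth kinase mTOR and the RNA-binding protein LARP1 set how much of the mRNA is translated. Several members have a near twin, or paralog, that can take their place. In the heart the best known is Rpl3l, which replaces Rpl3 in part of the ribosomes of striated muscle.

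All mice were of the genotype labelled iCSBmal1 KO, an inducible knockout of Bmal1 in cardiomyocytes, where Bmal1 (gene symbol Arntl) is an activator of the circadian clock. They received either vehicle or tamoxifen, the drug that triggers the deletion. Each of 4 groups (females and males, with vehicle or with tamoxifen) has 24 libraries, 2 at each of 12 circadian times (ct) from 18 to 62 h in steps of 4 h. The vehicle mice carried the same alleles, and no group received the drug without them, so an effect of tamoxifen and an effect of the deletion cannot be told apart. As to the promoter of the recombinase and the age of the mice, neither is given in the sources used here. Nothing in the labels states that each library is a separate animal, so p-values measure the spread between libraries. The numbers that end the library labels run in separate series for vehicle males, for vehicle females and for the tamoxifen mice, whose sexes share 1 series. What the numbers stand for is not stated. Except for sex in tamoxifen hearts, each comparison sets series against series, and series and group cannot be told apart.

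Library totals ran from 8944955 to 20596194 counts. For the targeted gene, Arntl, the fitted ratio of peak to trough was 27.3 in females and 17.2 in males with vehicle, and 3.33 and 3.36 with tamoxifen. Its fitted mean, the midpoint of the fitted curve on the log2 scale, was not lower with tamoxifen. The log2 change of this midpoint was 0.44 ± 0.15 in females (adjusted p = 0.01948) and 0.36 ± 0.15 in males (adjusted p = 0.0287, both by edgeR). Arntl was higher with tamoxifen at 6 of 12 times in females and at 5 of 12 in males. The midpoint is not the average CPM, so a rise of Arntl RNA cannot be read from it. The 6 cardiomyocyte markers summed to between 26940 and 51260 CPM in every library. In 10 vehicle male libraries the share of counts in genes of the annotation class TEC (loci with no established transcript) was above 0.1115%, the highest share in any other group. These are called TEC-rich below, and they include both vehicle male libraries at ct 30 and both at ct 34. The mean transcript length of the other coding genes, weighted by counts, also differed, with a median of 4582 bases in vehicle females, 4111 in their male counterparts, and 4319 and 4310.0 in females and males given tamoxifen. Values are therefore also given without the 10 libraries, after correcting each library for transcript length and GC content, and with both. Shares of all tested genes come from the uncorrected fit to all 96 libraries. No such share is given beside counts of members from other fits, so those counts cannot be set against all genes.

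The members covered a wide range of levels. Divided by transcript length, the mean over the 96 libraries ran from 4.77 to 577.6 CPM per kb with a median of 210.1, and among the highest were Rplp1 (a stalk protein) and Rps2. At the low end stood Rpl13a at 4.77 and Rps3a2 at 7.21 CPM per kb. These were also the members just above the entry level, at 5.04 and 5.71 CPM. Just below it were Rps3a3 at 3.33 CPM and Rps10 at 2.37, followed by Rpl24 at 0.44, Rps12l1 at 0.19, Rpl39l at 0.16, Rpl32l at 0.10 and Rpl10l at 0.00. Rpl24, Rpl13a and Rps10 encode core proteins, and part of their exons is annotated to other genes as well. On either strand this was 47.0% of the exon bases of Rpl24, 35.4% of those of Rpl13a and 28.7% of those of Rps10. With genes on their own strand it was 47.0%, 35.4% and 20.55%. Rpl35 and Rpl23a share a larger part, 66.2% and 62.3% on either strand but 0.00% and 2.60% of their exon bases on their own, and were at 136 and 208 CPM. The part of shared exons in the low levels was not tested.

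Most members have near-identical copies elsewhere in the genome, many of them pseudogenes. In 80 of the 82, at least one 50-base stretch of the transcript also occurs in another annotated gene, so the assignment of reads could have shifted counts between copies. The 8 members with at most 10% of such stretches include Rpl22, Rpl3l, Rpl7l1, Rps15a and Rps20, and the values of the 8 are given apart below. The annotated transcripts of Rps15a (5130 bases) and Rps20 (3706 bases) are far longer than the median member (784.5 bases), so their levels per kb and their length-corrected values rest on that annotation.

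Annotated start sites were searched for pyrimidine runs, a looser sign than the TOP tract defined above. A run counted here could begin before the start base, as in Rpl39, whose run of 5 bases begins at position -4. The counts are therefore not counts of TOP tracts. RefSeq windows from 250 bases before to 50 after an annotated start (GRCm38.p6) were found for 59 of the 82. A run of at least 5 pyrimidines lay over the start base in 19 of the 59 (32.2%), against 11.8% of all 27025 genes with a window. The following 8 starts are shown because the results turn on these genes. Rps21 and Rpl38 are among the most changed members, Rps6 is the protein phosphorylated by the kinases downstream of mTOR, Rps27 and Rps27l are paralogs, and Rpl15, Rpl3l and Rpl7l1 departed from the rest. Each runs 5′ to 3′ from 30 bases before the start to its 20th base, and capitals mark the pyrimidine run over the start.
Rps21 (chr2:180257349-180257398, plus strand): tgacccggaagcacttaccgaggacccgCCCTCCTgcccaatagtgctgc
Rpl38 (chr11:114668550-114668599, plus strand): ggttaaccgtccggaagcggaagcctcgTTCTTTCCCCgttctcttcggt
Rps6 (chr4:86857348-86857397, minus strand): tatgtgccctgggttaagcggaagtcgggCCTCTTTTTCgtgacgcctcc
Rps27 (chr3:90213629-90213678, minus strand): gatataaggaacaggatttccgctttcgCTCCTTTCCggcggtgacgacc
Rps27l (chr9:66946056-66946105, plus strand): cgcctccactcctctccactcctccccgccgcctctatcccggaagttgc
Rpl15 (chr14:18270967-18271016, minus strand): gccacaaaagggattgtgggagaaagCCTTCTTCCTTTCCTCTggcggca
Rpl3l (chr17:24727796-24727845, plus strand): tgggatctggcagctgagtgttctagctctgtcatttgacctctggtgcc
Rpl7l1 (chr17:46782637-46782686, minus strand): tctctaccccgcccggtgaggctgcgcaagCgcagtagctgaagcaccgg

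The run spans 7 bases in Rps21, 10 in Rpl38 and Rps6, 9 in Rps27 and 17 in Rpl15. In Rps27l and Rpl3l no pyrimidine stands at the annotated start, and in Rpl7l1 the run is 1 base long. The windows were also searched on both strands for 3 motifs, a gene with several starts counting once if any of its windows held the motif. Of these, CCGGAAG and AAGATGGC can overlap by the letters they share. CCGGAAG, a core recognised by ETS-family factors, occurred in 24 of 59 members (40.7%), against 9.93% of all genes with a window and 18.8% of those tested here. AAGATGGC, a form of the YY1 motif, occurred in 6 members (10.2%), against 3.19% of all genes and 4.90% of those tested. CACGTG, the E-box bound by the BMAL1 and CLOCK dimer, also occurred in 6 (10.2%), among them Rpl14, Rpl19, Rpl23 and Rpl34, against 8.09% of all genes and 11.52% of those tested. A match is a string of letters in the window and not a measured binding site.

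In vehicle hearts the members were lower in females than in males. Of the 82, 78 passed the test (edgeR's quasi-likelihood test, adjusted p under 0.05), 77 lower in females and 1 higher. Over all 15629 tested genes 68.3% passed, and 36.5% were lower. The median log2 change (female minus male) was -0.42 over the members and -0.03 over all tested genes. Together the members took 1.25 to 2.34% of a library's counts in vehicle females (median 1.38%) and 1.33 to 2.501% in the males (median 2.06%). No member separated the female from the male libraries without overlap, and the median of 81 members was lower in females. The same counts over all tested genes are not given.

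**Figure D1:**
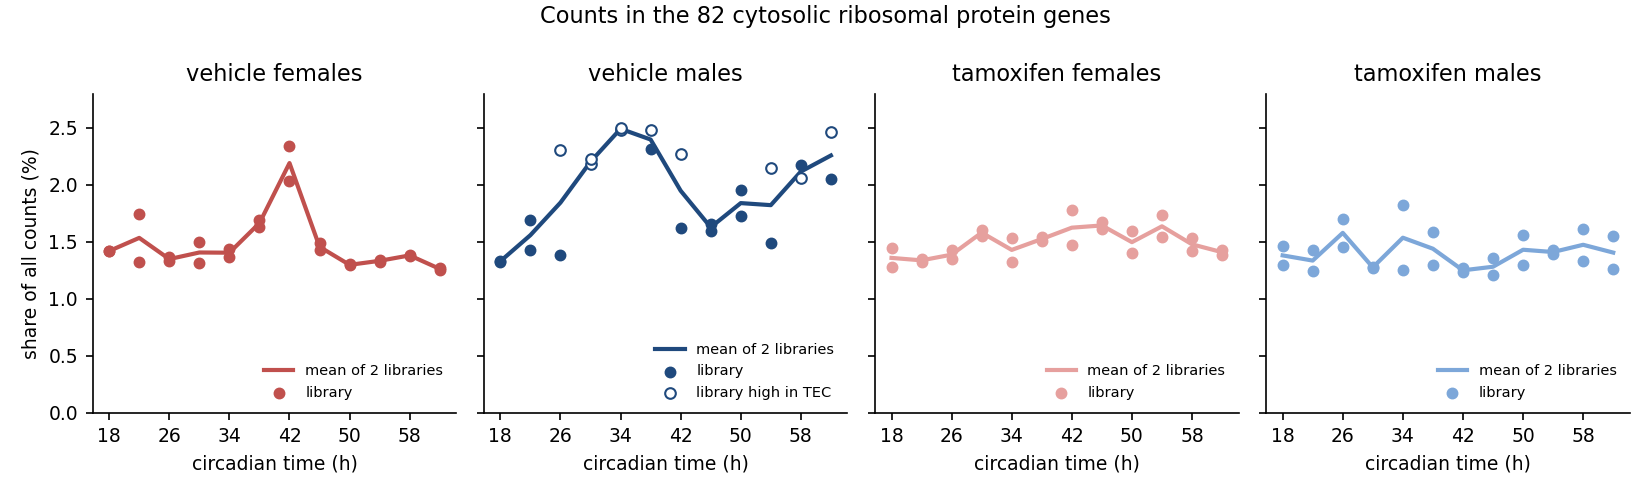
Share of all counts (%, y axis) in the 82 cytosolic ribosomal protein genes against circadian time (h, x axis) in the 4 groups. Points are libraries, lines the mean of the 2 libraries of a time, and the TEC-rich vehicle male libraries are marked. Vehicle females reach a mean of 2.19% at ct 42, vehicle males run from 1.33 to 2.501%, and no tamoxifen library exceeds 1.82%.

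The largest differences were in genes of both subunits. Rps27a, which encodes ubiquitin fused to a small-subunit protein, was at 93.4, 122 and 217 CPM (lowest, median and highest of 24 libraries) in vehicle females and at 97.9, 220.1 and 314 in vehicle males. Its log2 change was -0.67 ± 0.09 (SE, adjusted p = 7.592e-10 by edgeR), lower at 10 of 12 times. Rps21, a small-subunit protein found only in eukaryotes, was at 53.98, 70.1 and 155 CPM in the females and at 63.6, 127 and 181 in the males. In both genes the median male library lay well above the median female one, while the lowest libraries of the sexes were alike. The highest female library passed the male median in Rps21 and stayed just under it in Rps27a. The change of Rps21 was -0.65 ± 0.08 (adjusted p = 1.211e-10 by edgeR). Rpl36, Rps12 and Rps14, core proteins of the large and the small subunit, were next at -0.65, -0.63 and -0.61.

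The members that did not pass were Rps3a2, Rplp0, Rpl15 and Rps2, at -0.12, -0.08, -0.05 and -0.05. Rplp0 is the scaffold of the stalk, the arm of the large subunit that recruits translation factors. It was at 478, 549.2 and 759.9 CPM in vehicle females and at 481, 581.2 and 774 in males, nearly the same range (adjusted p = 0.09925 by edgeR). The stalk proteins that attach to it were lower in females, Rplp1 at -0.47 ± 0.07 and Rplp2 at -0.52 ± 0.07, and so was the laminin receptor gene Rpsa, at -0.25 ± 0.05. Rpl7l1, which encodes a factor of large-subunit assembly related to Rpl7, was the 1 gene higher in females, at 0.12 ± 0.04. It ran from 47.2 to 60.2 CPM in the females and from 36.7 to 59.6 in the males, so the ranges shared their upper end and only the males reached lower.

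Large-subunit genes had a median of -0.42 (47 of 49 called) and small-subunit genes -0.45 (31 of 33 called). The 4 X-linked members were all lower in females, with a median of -0.33. The 8 members with few shared stretches were all called, 7 lower and 1 higher, with a median of -0.28. Members with a pyrimidine run over the start had a median of -0.48 (18 of 19 called), and those with a window but no such run -0.40 (38 of 40 called). Rpl15, which has the longest of the runs shown above, was the exception among the 19, at -0.05 ± 0.04.

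**Figure D2:**
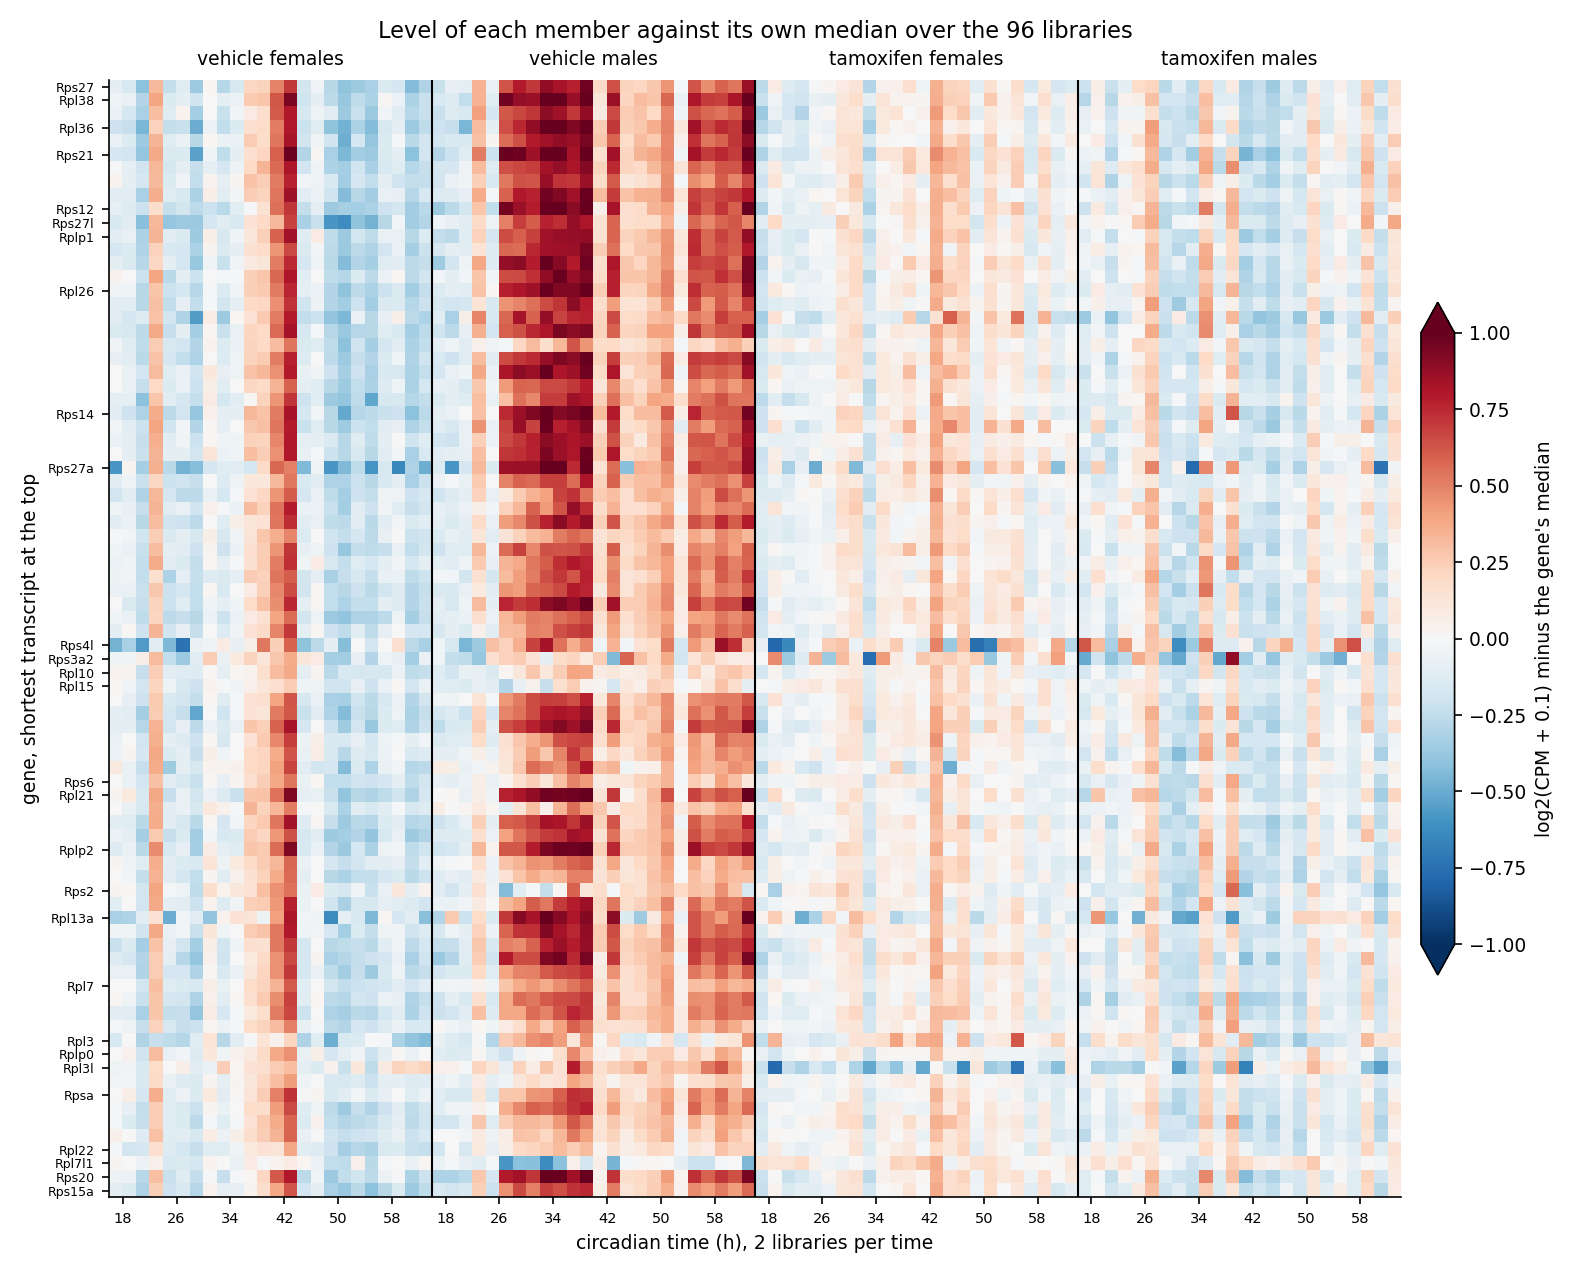
Level of each member (rows, shortest transcript at the top, with some of the genes named in the text labelled) in each of the 96 libraries (columns, by group and circadian time), as log2(CPM + 0.1) minus the gene's median over the libraries, with the colour scale at the side. Columns share a colour from top to bottom: the vehicle males at ct 34 and the vehicle females at ct 42 are high in nearly every row, and the vehicle males at ct 18 are low.

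The size of the sex difference went with transcript length, in the members and in other genes. Across the 82 members the log2 change had a Pearson correlation of 0.51 and a Spearman correlation of 0.588 with log2 transcript length, where all points come from the same libraries. Members under 700 bases had a median of -0.50 (32 genes), against -0.39 in 260 other coding genes of that length. From 700 to 1000 bases the medians were -0.38 and -0.30, and from 1000 to 1500 bases -0.37 and -0.19. Short coding genes of other kinds were thus also lower in vehicle females, and the members' median was the lower of the pair in all 6 length classes. In the class over 4000 bases the single member, Rps15a, was at -0.44, where 4038 other coding genes had a median of 0.12. Its place in that class rests on its annotated transcript, as does that of Rps20 in the class from 2000 to 4000 bases.

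Without the 10 TEC-rich libraries 79 members were called, all lower in females, with a median of -0.33. With the correction for length and GC content 66 were lower and 4 higher, with a median of -0.21. With both, 46 were lower and 2 higher, and the median was -0.12. In that last fit Rps27a was at -0.24 and Rps21 at -0.16, while Rps15a was at -0.50 and Rps20 at -0.44. Rpl7l1 was at -0.05 and no longer passed. The TEC-rich libraries had a member share of 2.06 to 2.501% (median 2.29%), and the other 14 vehicle male libraries 1.33 to 2.31% (median 1.64%).

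**Figure D3:**
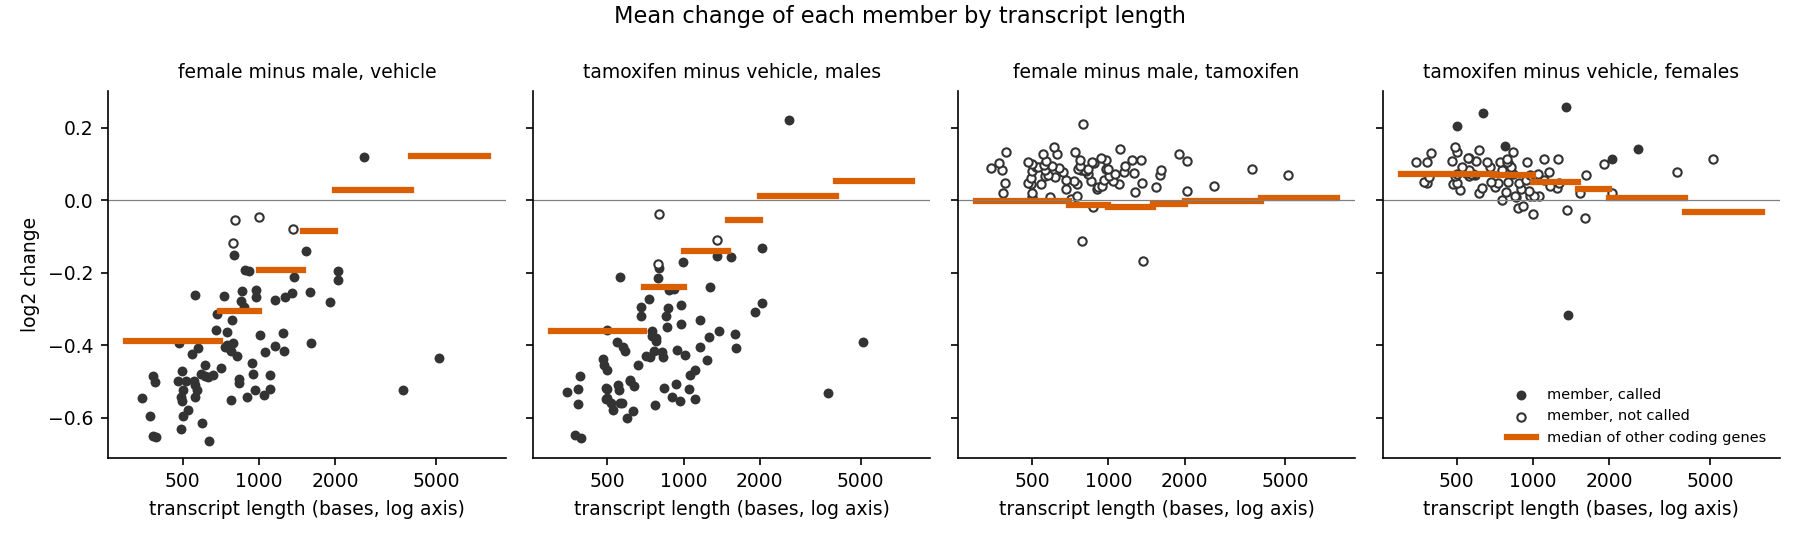
Fitted log2 change (y axis) of each member against its transcript length (bases, log x axis), by comparison. Points are members, marked by whether they passed an adjusted p of 0.05, and bars give the median of the other coding genes in each length class. Members under 700 bases have a median of -0.50 for sex in vehicle hearts and -0.52 for tamoxifen in males, and 0.08 for sex in tamoxifen hearts.

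Markers of other cell types moved with the same comparison. All 5 erythroid markers were lower in vehicle females (309 to 1195 CPM, median 550.4) than in males (436 to 1935 CPM, median 953). All 8 endothelial markers were lower too (1049 to 1520.0 CPM, median 1154, against 1048 to 2202 CPM, median 1388), as were the 3 of 6 lymphocyte markers that could be tested. Of 6 cardiomyocyte markers, 4 were higher in females and 1 lower. Macrophage markers were split (3 higher and 4 lower of 8), as were fibroblast markers (2 and 1 of 7). The 3 of 5 skeletal muscle markers tested were lower in females (1393 to 2074 CPM, median 1685, against 1120.0 to 2644 CPM, median 2110.0). Of 3 atrial markers tested of 5, 2 were higher in females, Myl7 at 3.36 ± 1.05 and Myl4 at 1.75 ± 0.76, though the summed level had nearly the same median in both sexes (53.6 to 2088 CPM, median 213, against 75.4 to 2024 CPM, median 214). Without the 13 libraries of the series above 20 CPM in Myl7, 78 members were called in this comparison. That fit had no vehicle library of either sex at ct 18. The libraries differed in mitochondrial counts and depth as well. Genes of the mitochondrial genome took a median of 7.21% of counts in vehicle females and 8.37% in males, and the median total was 16446380.0 counts in females and 12956954 in males. The part of these cell types, of mitochondrial RNA and of depth in the members' difference was not tested, and in bulk tissue fewer cells of a type and less RNA per cell cannot be told apart.

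In tamoxifen hearts no member passed the test between the sexes. The count was 0 of 82 by edgeR and 0 by DESeq2, with 15 at an unadjusted p under 0.05, where 7.68% of all tested genes passed. The median change was 0.08. The lowest was that of Rpl3l at -0.17 ± 0.06 (adjusted p = 0.08171 by edgeR) and the highest that of Rps3a2 at 0.21 ± 0.08. Rps21 was at 62.2, 84.0 and 109 CPM in tamoxifen females and at 56.5, 72.1 and 99.5 in tamoxifen males, so every library of both groups lay below the median of vehicle males. With the length and GC correction 22 members were called, all higher in females, and with the TEC-rich libraries also left out 35, at a median of 0.08.

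The change in the sex difference was tested as an interaction, the female minus male difference with tamoxifen minus that with vehicle. It passed in 77 members, all higher, where 52.3% of tested genes passed and 27.0% were higher. The median was 0.50, against 0.03 over all tested genes. Rps21 had the highest value at 0.79 ± 0.12 (adjusted p = 2.26e-07 by edgeR, in that direction at 11 of 12 times), followed by Rps27a at 0.75, Rps14 at 0.71, Rpl38 at 0.70 and Rps12 at 0.69. The 5 that did not pass were Rpl7l1 at -0.08, Rpl3l at 0.04, Rplp0 at 0.13, Rps2 at 0.13 and Rps4l at 0.28. With both corrections 64 were called, with a median of 0.20. Cell type markers moved with the interaction too. It passed, higher, in 5 of 8 endothelial markers (Cldn5 at 0.61), 4 of 5 erythroid (Hba-a2 at 0.87), 5 of 7 fibroblast (Dpt at 0.63) and 2 of the 3 tested lymphocyte markers. Of 6 cardiomyocyte markers 1 was higher and 4 were lower, among them Ryr2 at -0.56 and Ttn at -0.53. Their part in the members' interaction was not tested.

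In males, nearly every member was lower with tamoxifen than with vehicle. The test passed in 79 of 82, with 78 lower and 1 higher, where 70.0% of tested genes passed and 37.8% were lower. The median was -0.42, against -0.05 over all tested genes. This comparison shares the 24 vehicle male libraries with the sex comparison in vehicle hearts, so the likeness of their values is not independent. The members took 1.21 to 1.82% of counts in tamoxifen males (median 1.35%). At least 70 members were above their own median over all libraries in 19 of the vehicle male and 6 of the tamoxifen male libraries.

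The largest fall was that of Rps21, at -0.66 ± 0.08 (adjusted p = 8.678e-11 by edgeR, lower at 11 of 12 times). Rpl38, known for its part in the translation of embryonic patterning genes, was at 48.2, 92.8 and 135 CPM in vehicle males and at 46.3, 53.4 and 70.6 in tamoxifen males. Its highest tamoxifen library thus lay below the median vehicle library, and the lowest libraries were alike. The change was -0.65 ± 0.08 on the log2 scale. Rps14, Rpl31 and Rpl26 followed at -0.60, -0.58 and -0.58. The members that did not pass were Rps4l, Rpl3 and Rpl15 at -0.18, -0.11 and -0.04. Rpl7l1 again went the other way, at 0.22 ± 0.04 and higher at 12 of 12 times, but with both corrections it was at 0.03.

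The stalk genes and Rpsa all fell in males, from -0.15 ± 0.04 in Rplp0 to -0.55 ± 0.07 in Rplp2. The 8 members with few shared stretches were all called, 7 lower and 1 higher, with a median of -0.34. Length again went with the change: members under 700 bases had a median of -0.52 against -0.36 in other coding genes, and those from 1000 to 1500 bases -0.40 against -0.14. With the length and GC correction 75 members were called with a median of -0.24. With the TEC-rich libraries also left out, 71 were called with a median of -0.16. All 8 endothelial and the 3 tested lymphocyte markers fell in males too, as did 2 of 5 erythroid markers, while 5 of 6 cardiomyocyte markers rose. Their part in the members' fall was not tested.

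In females few members changed with tamoxifen. Of the 82, 8 passed, 7 higher and 1 lower, where 27.5% of tested genes passed and 15.2% were higher. The median was 0.07, against 0.01 over all tested genes. Their share of counts ran from 1.28 to 1.78% in tamoxifen females, with a median of 1.49%. The higher ones were Rpl3 at 0.26, Rps27a at 0.24, Rps27l at 0.20, Rpl17 at 0.15, Rpl7l1 at 0.14, Rpl22 at 0.11 and Rpl15 at 0.10, and the lower one was Rpl3l. Without the 2 vehicle female libraries at ct 42, which stood apart as described below, 28 members were called.

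Rpl3 and its muscle paralog Rpl3l departed from the other members and from each other. Both proteins can hold the same place in the large subunit, near the site where peptide bonds form. Rpl3l (chr17:24727820-24736143, plus strand, GRCm38) has no 50-base stretch in another gene, whereas 85.6% of the stretches of Rpl3 (chr15:80077791-80091868, minus strand) occur elsewhere. Rpl3l was at 213, 264 and 313 CPM in vehicle females and at 148, 214 and 275 in tamoxifen females. In males it was at 239.8, 298 and 437 CPM with vehicle and at 158, 246 and 339.9 with tamoxifen. Both tamoxifen groups reached lower than any vehicle library, and their upper libraries overlapped the vehicle range. The fall was -0.32 ± 0.06 in females (adjusted p = 3.156e-05) and -0.36 ± 0.06 in males (adjusted p = 4.2e-07, both by edgeR), at 12 of 12 times in each sex. The interaction was 0.04 ± 0.09 (adjusted p = 0.689 by edgeR). With both corrections the falls were -0.34 and -0.33.

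Rpl3 was at 131, 167 and 214 CPM in vehicle females and at 156, 197 and 283 in tamoxifen females, a rise of 0.26 ± 0.06 (adjusted p = 0.0003057 by edgeR) seen at 12 of 12 times. In males it was at 151, 199 and 259 CPM with vehicle and at 143, 188 and 231 with tamoxifen, a change of -0.11 ± 0.06 (adjusted p = 0.08423 by edgeR). The change in males was 0.01 without the TEC-rich libraries and 0.11 with both corrections. The interaction was 0.37 ± 0.08 (adjusted p = 0.0001472 by edgeR), but 0.11 with both corrections (adjusted p = 0.387 by edgeR), and the rise in females was then 0.22 (adjusted p = 0.0003025). The ratio of the pair was computed after their values were seen and is a description. Per kb of transcript, Rpl3l exceeded Rpl3 in all 24 libraries of each vehicle group, with ratios of 1.14, 1.504 and 2.12 (lowest, median and highest) in females and 1.04, 1.51 and 2.13 in males. With tamoxifen the ratio was 0.54, 1.07 and 1.69 in females and 0.68, 1.24 and 1.95 in males, and it exceeded 1 in 15 and 16 of 24 libraries.

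**Figure D4:**
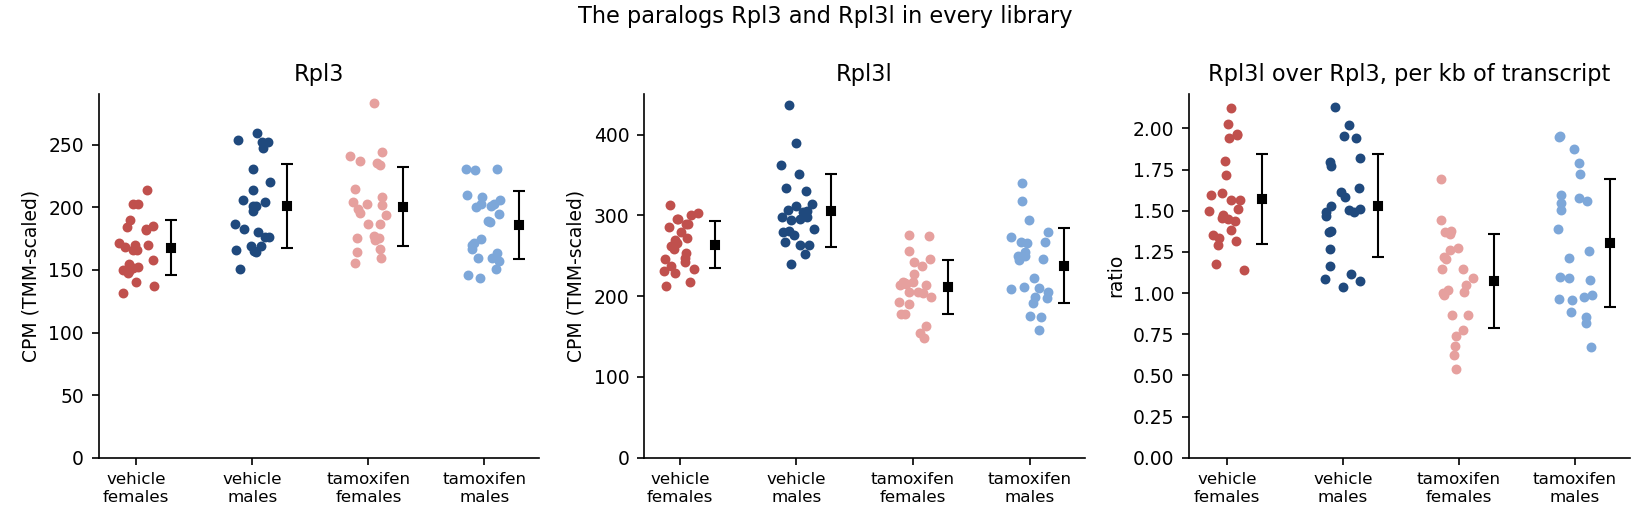
Level of Rpl3 and Rpl3l (CPM) and their ratio per kb of transcript (no unit) in each library of the 4 groups. Points are libraries, with the mean and SD (n = 24) of each group. Rpl3l and the ratio sit lower in both tamoxifen groups, with median ratios of 1.07 and 1.24 against 1.504 and 1.51.

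The other paralogs went with the members in vehicle hearts to different degrees. Rps27 and Rps27l, 2 forms of a zinc-finger protein of the small subunit, differ at their starts as shown above. Rps27 was at 59.9, 72.3 and 132 CPM in vehicle females and at 69.5, 115 and 159 in males, and Rps27l at 30.9, 40.1 and 76.4 and at 44.4, 66.7 and 87.8. Both were lower in vehicle females, at -0.54 ± 0.07 and -0.55 ± 0.06. In females with tamoxifen Rps27l rose, at 0.20 ± 0.06, while Rps27 was at 0.11 ± 0.07 and did not pass, and the difference between the genes was not tested. Reads of Rps27 are uncertain, since 98.6% of its stretches occur elsewhere, many in the retrogene Rps27rt. In vehicle females Rpl22l1 was lower, at -0.50 ± 0.08 and so was its paralog Rpl22, at -0.22 ± 0.04. Rpl7, the relative of Rpl7l1, was lower at -0.27 ± 0.04. The X-linked genes Rpl10 and Rpl39 were at -0.15 and -0.49, Rps4x at -0.27 and Rps4l, an annotated pseudogene, at -0.39. Of 14 listed paralogs, 12 are members (Rpl10l and Rpl39l were below the entry level). All 12 were called in vehicle hearts (11 lower), 10 in males with tamoxifen (9 lower) and 5 in females with tamoxifen (4 higher).

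The members rose and fell together over time, with different peaks in the vehicle groups. A 24 h rhythm was called in 73 members in vehicle females, where 34.5% of tested genes were called, and in 73 in vehicle males, where 55.2% were. Fitted peaks of the called members lay between 16.4 and 17.9 h in vehicle females (median 17.3). In vehicle males the median was 10.4 h, and 70 of 73 lay within 1 h of it. The others were Rpl23a and Rpl6l, both at 11.4 h, and Rpl7l1 at 20.5 h. Amplitudes (from the fitted mean to the peak, log2) ran from 0.13 to 0.30 in females and from 0.12 to 0.44 in males.

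In vehicle females the calls rested on a single time. Rps21 was at 118 and 155 CPM in the libraries at ct 42 and at 68.6 and 69.6 at ct 18, on the same clock hour a day earlier. For 82 of 82 members the highest vehicle female library was one at ct 42, and for 72 both libraries of that time were above all others. The median ratio of ct 42 to the other times was 1.65 over the members. In those libraries the mean transcript length of other coding genes was 3810.2 and 3941 bases, below the group median given above. Without them 1 member was called instead of 73, and in the first 24 h alone 0 were. The largest amplitudes were those of Rpl21 at 0.30 ± 0.07 (adjusted p = 0.0009696 by edgeR), Rps21 at 0.30 ± 0.08, Rps27l at 0.29 ± 0.06, Rpl36 at 0.27 ± 0.07 and Rps14 at 0.26 ± 0.07. In tamoxifen females, too, the highest library was one at ct 42 for 74 members. There both libraries of that time were above all others for 1 member, and the median ratio to the other times was 1.13.

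In vehicle males the members were low at ct 18 and high at ct 34 and 38. Their share of counts averaged 1.33% at ct 18, 2.49% at ct 34, 2.40% at ct 38, 1.63% at ct 46 and 2.26% at ct 62. At ct 42, on the same clock hour as ct 18, it averaged 1.95%. Both libraries at ct 18 and the lower at ct 22 were above 20 CPM in the atrial marker Myl7, as no other vehicle male library was. The part of atrial tissue in the low values was not tested. Rpl38 was at 51.6 and 52.5 CPM at ct 18, at 124 and 135 at ct 34 and at 66.6 and 71.2 at ct 46. The libraries of a time lay far apart at ct 26 (52.7 and 112 CPM) and ct 54 (54.9 and 100.3 CPM), where the higher was TEC-rich. The largest amplitudes were those of Rps27a at 0.44 ± 0.09 (adjusted p = 0.0001625 by edgeR), Rpl13a at 0.44 ± 0.08, Rpl36 at 0.44 ± 0.07, Rps12 at 0.42 ± 0.07 and Rpl38 at 0.42 ± 0.07. Without the TEC-rich libraries 25 members were called instead of 73, and in the second 24 h alone 2 were. Leaving out the TEC-rich libraries left no vehicle male library at ct 30 or ct 34, near the fitted peak. The counts with and without them therefore do not rest on the same times.

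Rpl7l1 ran against the other members in vehicle males. It was at 36.7 and 42.8 CPM at ct 34, when Rpl38 was high, and at 54.4 and 56.1 at ct 18, when Rpl38 was low. Its median Pearson correlation with the other members over the 24 vehicle male libraries was -0.51, where the median over all 3321 pairs of members was 0.917. Over the 24 libraries of the other groups the median of pairs was 0.958 in vehicle females, 0.786 with tamoxifen in females and 0.826 with tamoxifen in males. Rpl3l stood apart in tamoxifen females, with a median correlation of 0.0067 with the others. These correlations describe genes counted in the same libraries, which share scaling and composition.

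With tamoxifen no member had a called rhythm. The counts were 0 of 82 in females, where 17.1% of tested genes were called, and 0 of 82 in males, where 8.03% were. DESeq2 also called 0 in both, and 1 member in each sex had an unadjusted p under 0.05. The median amplitude of the members was 0.03 in tamoxifen females and 0.05 in tamoxifen males, against 0.21 and 0.28 with vehicle. The difference in rhythm between tamoxifen and vehicle passed in 36 members in males, where 20.7% of tested genes passed, and in 0 in females, where 0.237% did. In females 61 members had an unadjusted p under 0.05 for this difference, and DESeq2 called 0. In males the lowest adjusted p was that of Rpl27, and Rpl36 had a difference of 0.42 ± 0.10 (length of the vector between the fitted rhythms, log2, adjusted p = 0.005679 by edgeR). Without the TEC-rich libraries 0 members passed in males, but that fit had no vehicle male library at ct 30 or ct 34.

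**Figure D5:**
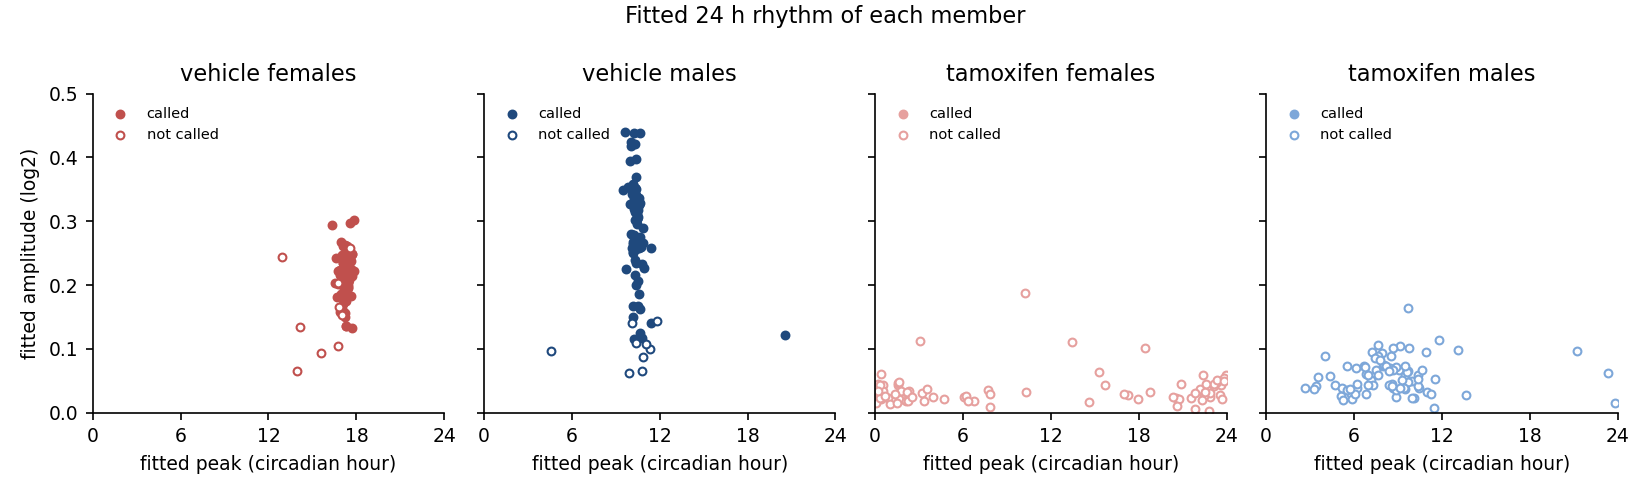
Fitted amplitude (log2) and fitted peak (circadian hour) of each member in the 4 groups, with members called rhythmic at an adjusted p of 0.05 marked. Called members gather near 17.3 h in vehicle females and near 10.4 h in vehicle males, with Rpl7l1 at 20.5 h, and in both tamoxifen groups 0 are called.

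Ribosomal genes outside the naming rule were examined in the same way. Fau encodes a small-subunit protein fused to a ubiquitin-like one, Rack1 is a scaffold on the small subunit, and Rps27rt is a retrogene of Rps27. Lower in vehicle females were Fau at -0.55 ± 0.06, Rps27rt at -0.38 ± 0.06 and Rack1 at -0.23 ± 0.04. In males with tamoxifen Fau fell by 0.46, Rps27rt by 0.46 and Rack1 by 0.27 on the log2 scale. In females with tamoxifen Fau was at 0.11 ± 0.06, Rack1 at 0.02 ± 0.04 and Rps27rt at 0.01 ± 0.06, none of which passed by edgeR.

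Translation factors whose mRNAs carry TOP tracts went only in part with the ribosomal proteins. Of 15, 9 were lower and 3 higher in vehicle females, and 6 fell and 3 rose in males with tamoxifen. Tpt1 (translationally controlled tumour protein) was at -0.37 ± 0.05 and Eef1d (a subunit of the elongation factor 1 exchange complex) at -0.35 ± 0.05 in the sex comparison. The initiation factor Eif4b, at 0.29 ± 0.05, and the elongation factor Eef2, at 0.25 ± 0.05, were higher in females. In females with tamoxifen 3 rose, Eef1a1 the most at 0.20 ± 0.05, and 1 fell, Naca at -0.10.

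Genes of the mTOR pathway and of initiation control were mostly higher where the members were lower. Of 20, 12 were higher and 2 lower in vehicle females, with Eif4ebp2 (a repressor of cap-dependent initiation) at 0.53 ± 0.05, Sesn1 (a sestrin, which restrains mTOR) at 0.46 ± 0.06 and Rps6kb2 (an S6 kinase) at -0.47 ± 0.05. In males with tamoxifen 14 rose and 4 fell, with Eif4g1 (the initiation scaffold) at 0.61 ± 0.07. With both corrections the counts in vehicle hearts became 3 higher and 6 lower, so the prevailing direction turned, and in males they became 8 and 4. Ddit4, an inhibitor of mTOR, rose with tamoxifen in females, at 1.17 ± 0.13, and in males, at 1.17 ± 0.13.

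Genes that build ribosomes showed no common direction. Of 33 assembly genes, 12 were higher and 10 lower in vehicle females, and 14 rose and 12 fell in males with tamoxifen. The RNA pseudouridylation proteins Nhp2 (-0.44 ± 0.06) and Nop10 (-0.34 ± 0.05) were lower in vehicle females, and Bysl (0.30 ± 0.06) and Tsr1 (0.29 ± 0.05), factors of small-subunit maturation, were higher. Of 15 genes of RNA polymerase I, which transcribes ribosomal RNA, 5 were higher and 8 lower in vehicle females, among them the largest subunit Polr1a at 0.47 ± 0.06 and the initiation factor subunit Taf1d at -0.40 ± 0.06. In females with tamoxifen 2 were called, Polr1e at 0.29 ± 0.06 and Polr1d at 0.15 ± 0.05.

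The mitochondrial ribosome is a separate machine that makes the few proteins encoded in mitochondrial DNA. Of its 77 tested genes 58 were lower and 3 higher in vehicle females, with a median of -0.25. In females with tamoxifen 45 of 77 rose and 1 fell, with a median of 0.14, where 7 of the 82 cytosolic genes rose. In males with tamoxifen 20 rose and 34 fell, with a median of -0.05, where 78 of the 82 cytosolic genes fell. Mrps34 rose most in tamoxifen females, at 0.45 ± 0.05. With both corrections the counts in females with tamoxifen were 46 higher and 3 lower. The difference between the cytosolic and mitochondrial sets was not tested.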

How the data were processed

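RNA of 96 ventricle libraries was poly-A selected and sequenced, per the labels' protocols. The authors deposited 1 table of raw, unnormalized read counts for every gene. HISAT2, Picard and HTSeq are named, with the builds GRCm38 and mm10, in the submitters' processing notes; neither versions nor strand settings appear there. Every column matched 1 library. Totals of 8944955 to 20596194 counts limit the precision of low genes.

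Genes were kept by filterByExpr (minimum count 10), which left 15629. An edgeR 4.0.16 quasi-likelihood model (R 4.3.3) was fitted to all 96 libraries, with TMM scaling and a mean, a cosine and a sine term (24 h period) for each group, leaving 84 residual degrees of freedom. P-values were adjusted by Benjamini-Hochberg over all tested genes, at 0.05. Sex differences are female minus male and tamoxifen effects tamoxifen minus vehicle, on the log2 scale, and values after ± are standard errors. CPM per library are TMM-scaled, while the entry level used plain library totals. DESeq2 1.42.0 was run as an alternative, and the model was tested on simulated counts. Gene positions and transcript lengths come from the GENCODE annotation of GRCm38, and start-site sequences from RefSeq (GRCm38.p6). Other settings tried were other scalings, no filter, the length and GC correction, and leaving out libraries or times.

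Named genes are the listed paralogs, the stalk and laminin receptor genes, the 5 highest and 5 lowest changes in each mean comparison, the 5 largest called amplitudes in a group, members within 2 CPM of the entry level, and the 2 highest and 2 lowest called genes of the other lists. Further genes (Rps6, Rps15a, Rps20, Rpl23a, Rpl6l, Rpl27, the E-box genes, the 8 with few shared stretches, those highest per kb, and those that failed a test) were named after their values were seen. Single values of a few genes are not reported here. Members and lists were chosen with earlier results of these data known.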

Additional observations from a re-analysis of the deposited data

Results flagged for a closer look

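The sex difference of the members changed between vehicle and tamoxifen hearts in 77 of 82 genes by the interaction term, and 64 passed with both corrections. In all 77 the female minus male difference was higher with tamoxifen than with vehicle. The tamoxifen effect itself passed in 79 members in males, where the median of 81 was lower with tamoxifen, and in 8 in females. A count of lower medians over all tested genes is not given. Between the sexes in tamoxifen hearts 0 passed. The rhythm of the members differed between tamoxifen and vehicle males in 36 of 82 genes by the test of the rhythm terms. It differed in 0 without the 10 TEC-rich libraries, a fit with no vehicle male library at ct 30 or ct 34.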

How the results depend on the processing

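Of the summary results under 24 alternatives, 218 values kept within 1.5 times the reported count or within the spread of the members and 46 did not. Members called for sex in vehicle hearts fell from 78 to 48 with the length and GC correction without the TEC libraries. For sex in tamoxifen hearts, 0 became 1 with library size alone, 1 in the second 24 h, 22 with the length and GC correction and 35 with both. For tamoxifen in females, 8 became 4 with library size alone, 4 with no filter on low counts (using the dispersion trend of the filtered genes), 3 without libraries high in Myl7, 1 in the first 24 h, 15 with both corrections and 28 without the vehicle females at ct 42. The vehicle female rhythm count of 73 became 37 with the length and GC correction, 0 in the first 24 h and 1 without the vehicle females at ct 42. The vehicle male rhythm count of 73 became 25 without the TEC libraries, 2 in the second 24 h and 5 with both corrections. Fits without the TEC libraries, which include those with both corrections, had no vehicle male library at ct 30 or ct 34. Rhythms became 1 and 2 in tamoxifen females, and 1 and 1 in tamoxifen males, without the TEC libraries and with both corrections. The rhythm change in females became 5 without libraries high in Myl7. All fits without libraries high in Myl7 had no vehicle library of either sex at ct 18. The rhythm change in males, 36, became 23 with RLE scaling, 12 with no filter, 12 with the length and GC correction, 0 without the TEC libraries, 23 without libraries high in Myl7, 63 in the first 24 h, 0 in the second and 0 with both corrections. The cause was not tested. Leaving out each time in turn gave 78 to 79 members for sex in vehicle hearts, 0 to 2 for sex in tamoxifen hearts, 3 to 16 for tamoxifen in females, 78 to 81 in males, 75 to 79 for the interaction, 1 to 77 and 65 to 76 for rhythms in vehicle females and males, and 4 to 46 for the rhythm change in males.

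Among genes named by rule that passed in at least 1 of the 2 fits compared, the sign changed in 11 cases. With the length and GC correction the sex difference in vehicle hearts was 0.0646 for Rpl10, 0.19 for Rpl15 and 0.18 for Rps2, Rpl15 was at 0.16 for tamoxifen in males and at -0.10 for the interaction. With both corrections it was 0.0693 for Rpl10, 0.0985 for Rpl15, 0.0104 for Rpl3 and -0.0485 for Rpl7l1, and the interaction of Rpl15 was -0.0088. Without the TEC libraries Rpl7l1 was at -0.0271. Other members changed sign too: with the length and GC correction the sex difference in vehicle hearts was 0.0059 for Rpl7a, 0.0047 for Rps6, 0.0022 for Rpl23a, 0.0469 for Rplp0 and 0.0893 for Rps3a2. None of the values of Rpl7a, Rps6, Rpl23a, Rplp0 and Rps3a2 passed. Of the sex differences in vehicle hearts with a changed sign, those of Rpl10, Rpl15 and Rps2 passed with the length and GC correction. Those of Rpl10 and Rpl15 also passed with both corrections. No paired analysis was possible because the numbers in the labels are unique to a library.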
